A study of Mus musculus with 12 samples.

Results

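The transcriptome of wild-type left ventricle was described from the 3 libraries labelled WT_NS, out of 12 libraries in 4 groups of mouse heart that combine genotype and treatment. Members were the RPKM columns of WT_NS libraries 1, 2 and 3, taken over every gene row. Of 28070 rows with RPKM values, 24125 had at least 1 count in these libraries and 18643 had a count in each of them. RPKM is the count divided by the gene length and by the library total, so it ranks genes per unit of length. That length is the one listed for the row and can exceed any single transcript. Tnnt2, for example, was listed at 7752 bases, against 3330 for its longest annotated transcript. Ranks and comparisons of RPKM between genes depend on these lengths. The animals were wild type at Alox5 and carried the treatment label NS, which the labels do not spell out. Strain, sex and age are not given in the sources used here, and no label says whether each library came from another mouse. Strand-aware (directional) libraries were built from TRIzol-extracted RNA after poly(A) selection with oligo(dT) and sequenced as pairs of 150-base reads.

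The left ventricle pumps blood into the aorta and contracts without rest. Its muscle cells are packed with sarcomeres, in which myosin thick filaments pull on thin filaments of actin, tropomyosin and troponin, and each beat is set off by calcium released from the sarcoplasmic reticulum. The energy comes mostly from fatty acids oxidised in mitochondria, whose own small genome encodes part of the respiratory chain. In adult mice the fast alpha myosin heavy chain Myh6 is the main ventricular form, while the slow beta form Myh7, skeletal actin and natriuretic peptides are known as genes of the fetal or stressed heart.

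The libraries held 21328937, 22372490 and 22039918 counts. Their log2 RPKM values correlated across 9413 genes with a mean count of at least 100 at r = 0.995 to 0.996, where genes are not independent replicates. Between each pair, 14 or 15 of these genes lay 2-fold or more apart. The chi-square of the counts per gene was 5.98 to 8.93, above sampling noise, so no library was a copy of another. Markers of heart muscle cells fitted the labelled tissue, since all 10 had a mean RPKM of at least 1 and together took 17.5%, 17.6% and 18.6% of counts. In bulk tissue, fewer cells of a type and less RNA per cell cannot be told apart, so every level below is a level in the whole piece of ventricle.

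Counts were concentrated in few genes. Ranked by their mean share, 7 genes held 25% of counts, 45 held 50%, 720 held 75% and 3060 held 90%. A mean RPKM of at least 1 was reached by 10696 genes, of which 8811 are protein coding, and 10062 reached it in every library. At least 10 RPKM was reached by 2868 genes, at least 100 by 385, at least 1000 by 45 and at least 10000 by 15. Protein-coding rows took 90.3% ± 0.378 (SD, n = 3) of counts.

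Transcripts of the mitochondrial genome headed the list. The highest row was mt-Nd6 (mitochondrial genome, 13552 to 14070, on the strand opposite to the other protein genes), a subunit of respiratory complex I, with 43716, 35473 and 38685 RPKM. The sources used here do not say whether counting used the strand. The level and rank of mt-Nd6 may thus include reads of the other strand, which was not tested. Next came mt-Nd4l, another complex I subunit, with 36165, 34973 and 38350.2 RPKM. Complex I subunits mt-Nd1 and mt-Nd2, cytochrome b (mt-Cytb) and the cytochrome oxidase subunit mt-Co1 had means of 21312, 19604, 18494 and 18216 RPKM. mt-Nd5 and mt-Nd4 had means of 15807 ± 937 and 12621 ± 661 RPKM (SD, n = 3). Library 2 was the lowest for 11 of the 13 protein genes of this genome, against 28.3% of all genes with a mean count of at least 100, and library 1 the highest for 11, against 32.8%. The largest coefficient of variation (CV, the SD over the mean) was 0.106, for mt-Nd6.

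The remaining mitochondrial protein genes were listed far lower, and nuclear rows of the same sequence were listed high. The cytochrome oxidase subunits mt-Co2 and mt-Co3 had means of 130 ± 7.48 and 28.5 ± 1.41 RPKM, and the ATP synthase subunits mt-Atp8 and mt-Atp6 had 152 ± 10.6 and 105 ± 5.89 RPKM (SD, n = 3). The complex I subunit mt-Nd3 had 576 ± 13.2 RPKM. A neighbouring set of gene models on chromosome 1, annotated as unprocessed pseudogenes, had levels of the order of the top mitochondrial genes. Gm28661 (chromosome 1, 24614885 to 24615565) had 32393, 29899 and 30161 RPKM and matched mt-Co2 at 100% identity over 681 bases. Gm10925 (24613974 to 24614651) had 32712, 29763 and 29307 RPKM and matched mt-Atp6 at 100% over 678 bases. Gm28437 (24613189 to 24613971) had 15088, 14648 and 14086 RPKM and matched mt-Co3 at 100% over 783 bases. Gm29216 (24615706 to 24616197) had 18800, 16532 and 15129.9 RPKM and matched mt-Co1 at 99.8% over 483 bases.

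The sequences of such a pair are shown because their reads carry the same letters. They are 120 bases of the mt-Co2 transcript (positions 445 to 564) from GENCODE M21, the same bases of its identical chromosome 1 match, and the aligned bases of a chromosome 2 match, Gm13341, all 5′ to 3′. This stretch was picked because, of those without gaps, it holds the most bases that differ in Gm13341. Capitals mark bases that differ from mt-Co2.
mt-Co2: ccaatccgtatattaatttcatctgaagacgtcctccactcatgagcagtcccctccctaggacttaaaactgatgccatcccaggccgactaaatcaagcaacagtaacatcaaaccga
Gm28661: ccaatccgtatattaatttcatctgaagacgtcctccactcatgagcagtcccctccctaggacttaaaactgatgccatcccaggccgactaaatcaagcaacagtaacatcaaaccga
Gm13341: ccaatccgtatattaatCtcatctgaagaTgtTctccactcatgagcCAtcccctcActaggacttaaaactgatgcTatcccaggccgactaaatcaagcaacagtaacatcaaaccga
Gm28661 differs from mt-Co2 at 0 of these bases and Gm13341 at 7, out of 16 over its whole alignment, which also holds 12 gaps. Gm13341, at 95.9% identity over its whole alignment, was listed at 212, 201 and 216 RPKM, against the mean of 30818 for Gm28661. A read from the stretch shared by mt-Co2 and Gm28661 carries no base that tells the rows apart, and how such reads were placed is not given in the sources used here. Which of the 2 loci the RNA came from was not tested.

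In all, 11 rows with a mean RPKM of at least 1 outside the mitochondrial genome matched it at 95% identity or more over at least 80% of their length, out of 10350 rows searched. They took 6.65%, 6.13% and 6.004% of counts. The 13 mitochondrial protein genes took 17.5%, 15.9% and 16.9%, and the mitochondrial genome with the matching rows took 24.7%, 22.6% and 23.4%. Transfer RNAs of the mitochondrial genome took 0.378% ± 0.0219 of counts but 9.30% of summed RPKM (SD, n = 3). mt-Tm, the highest of them, had a mean of 15307 RPKM over a length of 69 bases. Reads of 150 bases are longer than these rows and also cover their neighbours, so these per-length levels are not levels of mature transfer RNA. Mitochondrial ribosomal RNA took 0.129% ± 0.0101 (SD, n = 3), after selection for polyadenylated RNA.

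**Figure D1:**
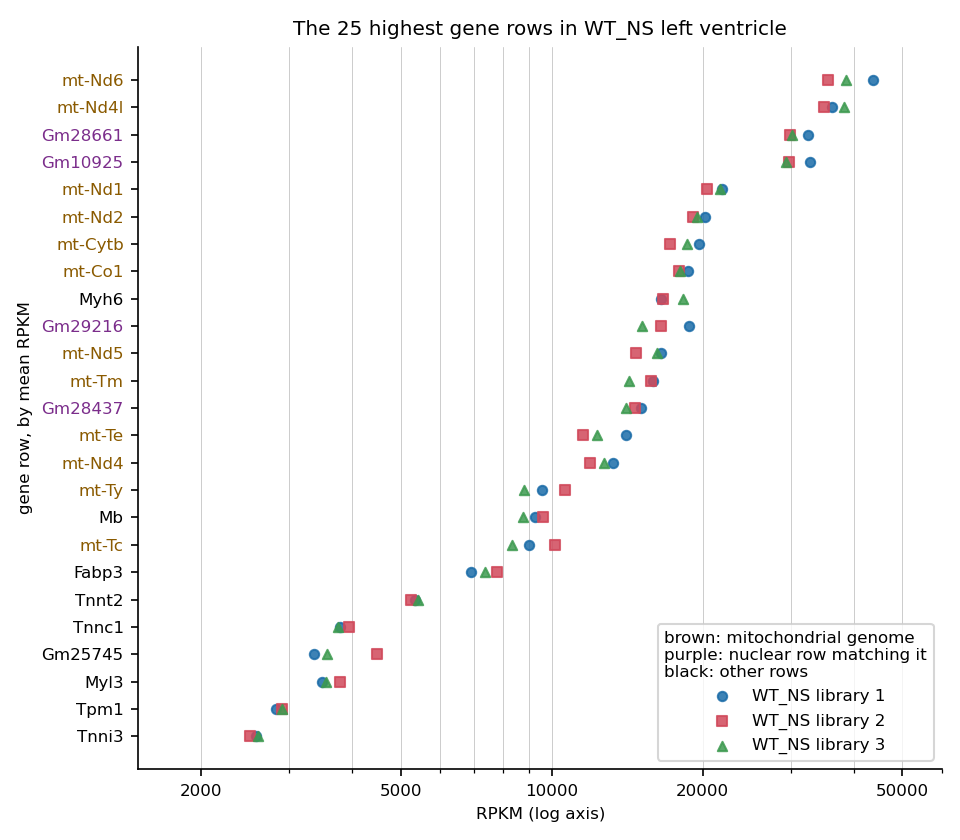
RPKM on a log axis of the 25 highest gene rows, by mean RPKM, with 1 symbol for each WT_NS library. Names in brown lie on the mitochondrial genome, names in purple are nuclear rows that match it, and Myh6 at a mean of 17138 RPKM is the highest of the other rows.

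Myh6 (chromosome 14, 54941981 to 54966927, ENSMUSG00000040752.16), the motor protein of the thick filament, was the highest gene outside the mitochondrial genome and its matches. It had 16521, 16655 and 18238 RPKM, and its 2236561, 2364946 and 2551250 counts were 10.5%, 10.6% and 11.6% of each library. No other gene held as many counts. In the sarcomere it was followed by the thin filament, led by cardiac troponin T, Tnnt2, which anchors the troponin complex to tropomyosin, with 5333, 5254 and 5407 RPKM. Tnnt2 alone held 4.13% of counts, and its CV was 0.0143. Troponin C (Tnnc1), the calcium sensor, had 3791, 3940.3 and 3745 RPKM, and troponin I (Tnni3), the inhibitory subunit, had 2574, 2504 and 2592 RPKM. Tropomyosin Tpm1, which covers the myosin sites on actin, had 2825, 2899 and 2903 RPKM, and cardiac actin Actc1 had 1955, 2317 and 2236 RPKM. The 3 troponin subunits stood above actin per unit of length in every library.

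Light chains and accessory proteins of the sarcomere followed. The essential light chain Myl3 had 3491, 3785 and 3548 RPKM and the regulatory light chain Myl2 had 1902, 1906 and 1876 RPKM. Leiomodin Lmod2, which lengthens thin filaments, had 748, 993 and 746 RPKM. Mybpc3, the myosin-binding protein C of the heart, had 755, 795 and 764 RPKM. Telethonin (Tcap), the cap of titin at the Z-disc, had 630.1, 484 and 765 RPKM, which made it lowest in library 2. Titin (Ttn) itself had 25.6, 29.1 and 30.3 RPKM over its great length and still took 0.331% of counts. Of the 42 sarcomere genes, 41 had a mean RPKM of at least 1, and the exception was the slow skeletal troponin I, Tnni1, at 0.0594. The list took 21.4%, 22.01% and 22.8% of counts, and Myh6 made up 49.3% of it. By summed RPKM the same genes took 7.84% ± 0.381 (SD, n = 3).

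Genes of calcium cycling took 1.74% ± 0.0139 of counts (SD, n = 3). The histidine-rich calcium-binding protein Hrc of the sarcoplasmic reticulum was the highest of the 20, with 1666, 1574 and 1658 RPKM. S100a1, a small calcium-binding protein, had 1180.4, 1282 and 1139 RPKM. The calcium pump Atp2a2 (SERCA2), which refills the reticulum after each beat, had 966, 954 and 970.4 RPKM and a CV of 0.00865. Its inhibitor phospholamban (Pln) had 369, 349 and 359.8 RPKM. The pump was thus listed at a higher level per unit of length than its inhibitor in each library. No gene of this list reached a CV of 0.3 among the 18 with a mean count of at least 100.

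Oxygen storage and energy transfer formed another high group, with 1.88% ± 0.0647 of counts (SD, n = 3). Myoglobin (Mb; chromosome 15, 77015489 to 77050670), the oxygen store of muscle, had 9256, 9621 and 8747 RPKM and made up 61.2% of the group's counts. Slc25a4, which exchanges ADP for ATP across the inner mitochondrial membrane, had 1213, 1279 and 1293 RPKM. Mitochondrial creatine kinase Ckmt2 had 1088, 1131 and 1074 RPKM, above the cytosolic muscle form Ckm at 386, 435 and 400.3 RPKM.

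All 80 nuclear genes of the respiratory chain and ATP synthase had a mean RPKM of at least 1, and together they took 3.65%, 3.86% and 3.75% of counts. Complex I took 1.16%, complex II 0.172%, complex III 0.417%, complex IV 0.724% and ATP synthase 1.28%. The heart and muscle subunits of cytochrome oxidase led the group, with Cox6a2 at 1944, 1877 and 2009.9 RPKM and Cox7a1 at 1464, 1699.9 and 1540.2 RPKM. Cox5b had 1152, 1310.5 and 1242 RPKM. Atp5b, the catalytic subunit of ATP synthase, had 870.0, 911 and 921 RPKM. The highest of complex I was Ndufb9, at 736, 794 and 740.0 RPKM, of complex III Uqcr11, at 785, 880.4 and 814 RPKM, and of complex II Sdha, at 298, 301 and 308 RPKM. Library 2 was the highest for 58 of these 80 genes and library 1 the lowest for 51. Over all 9413 genes ranked by spread, library 2 was the highest for 41.5% and library 1 the lowest for 33.7%.

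Enzymes of fuel use took 3.98%, 4.18% and 4.13% of counts, and all 88 had a mean RPKM of at least 1. Fatty acid uptake and oxidation took 1.84% ± 0.0489, the citrate cycle with pyruvate dehydrogenase 1.22% ± 0.0365, glycolysis with glucose uptake 0.794% ± 0.0168, and oxidation of ketones and branched-chain amino acids 0.240% ± 0.0103 (SD, n = 3). In every library the order of these 4 was the same. The fatty acid binding protein Fabp3, the carrier of fatty acids in the cytosol, had 6913, 7770 and 7353 RPKM and made up 32.9% of the counts of its group. Etfb, which takes electrons from fatty acid oxidation, had 989.7, 1021 and 1055 RPKM, although another row lies over it, as described with the overlapping rows. The citrate cycle was led by Idh2, at 547, 498 and 527 RPKM. Glycolysis was led by the muscle phosphoglycerate mutase Pgam2, at 618, 687 and 604 RPKM, and by Ldhb, the lactate dehydrogenase form of heart, at 615, 625 and 611 RPKM. Oxct1, which activates ketone bodies, led the last group with 285, 326 and 304 RPKM.

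Genes of protein synthesis, of protein folding and of the matrix were summed in the same way. The 77 cytosolic ribosomal protein genes took 0.857% ± 0.0255 of counts and heat shock proteins 1.26% ± 0.0646 (SD, n = 3). The chaperone Hsp90ab1 had 1112, 1179.5 and 1088 RPKM and the muscle chaperone Hspb7 had 849.8, 906 and 896 RPKM. Extracellular matrix took 0.416% ± 0.0157 of counts and was led by the basement membrane collagen Col4a1, with 109, 117 and 104 RPKM. Natriuretic peptides took 0.0374%, 0.0491% and 0.0231%, and haemoglobin 0.0254%, 0.0195% and 0.0149%. These last 2 lists had the widest relative spread among the lists plotted by share of counts. The widest 95% Wilson interval of any share, for counting error only, was 0.0350 percentage points, for the sarcomere.

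**Figure D2:**
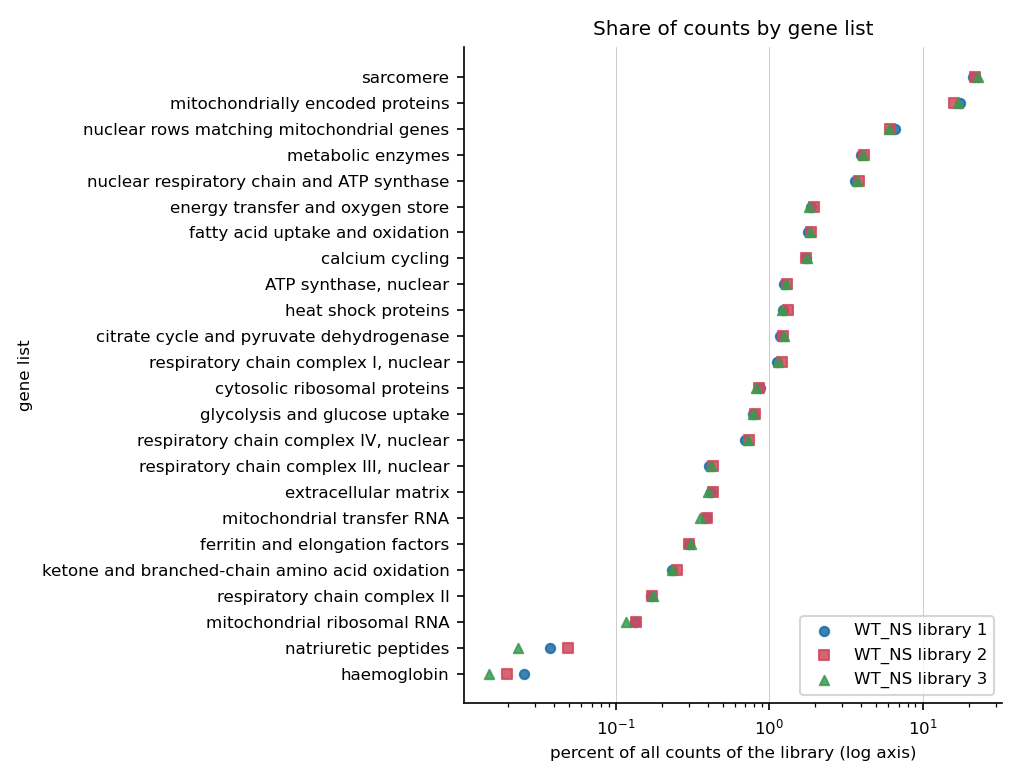
Percent of each library's counts (log axis) taken by each gene list, with 1 symbol per WT_NS library. Sarcomere genes at a mean of 22.1% and mitochondrial protein genes at 16.8% stand highest, and natriuretic peptides and haemoglobin lie lowest with the symbols farthest apart.

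Many muscle proteins exist as paralogs, near relatives coded by separate genes, and 48 such families were set out by each member's share of the family's summed RPKM. The leading member held at least 99% in 10 families, at least 90% in 25 and at least 75% in 35. It was the same gene in all 3 libraries in 47 families. The SD of its share had a median of 0.498 percentage points, and the largest was 5.50.

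Most contractile families were held almost wholly by 1 member. Myh6 held 98.1% ± 0.0591 of myosin heavy chain, against 254, 243 and 272 RPKM for Myh7, so that Myh6 stood 65.1 to 68.6 times above Myh7 in the 3 libraries. Their transcripts are 91.7% identical over 5802 aligned bases, and how reads that fit both were counted is not given in the sources used here. Tnnc1, Tnni3 and Tnnt2 held 99.98%, 99.9% and 99.3% of their families, and Tpm1 held 94.4% ± 0.204 (SD, n = 3). Actin was less uniform, since Actc1 held 88.2% ± 2.31 (SD, n = 3), and skeletal actin Acta1 followed with 68.8, 210.5 and 77.1 RPKM, high in library 2. Among pumps and channels, Atp2a2 held 99.9% of the SERCA pumps, Ryr2 99.9% of the ryanodine receptors that release calcium, Casq2 97.3% of calsequestrin and Gja1 93.2% of connexins.

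Several energy families were led by the form known from muscle, and others by the general form, such as Cox4i1 with 99.3% and Cox6b1 with 99.6% of their families. Cox6a2, Cox7a1 and Cox8b held 99.2% ± 0.118, 95.0% ± 0.236 and 93.7% ± 0.400 of their families (SD, n = 3). Ckmt2 held 72.0% of creatine kinase and Ckm 26.7%. Ldhb held 89.6% of lactate dehydrogenase and stood 9.13 to 9.80 times above Ldha. The insulin-responsive glucose transporter Slc2a4 held 89.0%, hexokinase Hk2 63.6%, and the muscle carnitine palmitoyltransferase Cpt1b, which lets fatty acids into mitochondria, 94.0%. Glycogen phosphorylase was divided between the muscle form Pygm, 63.2% ± 0.150, and the brain form Pygb, 36.6% ± 0.167 (SD, n = 3). Pdk4, a kinase that shuts down pyruvate dehydrogenase, had 139, 193 and 254 RPKM and held 71.4% ± 5.50 of its family (SD, n = 3), the least even of all leading shares. Eef1a2, the elongation factor of muscle and nerve, had 414, 439 and 458 RPKM against 92.7, 87.7 and 82.7 for the general form Eef1a1.

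**Figure D3:**
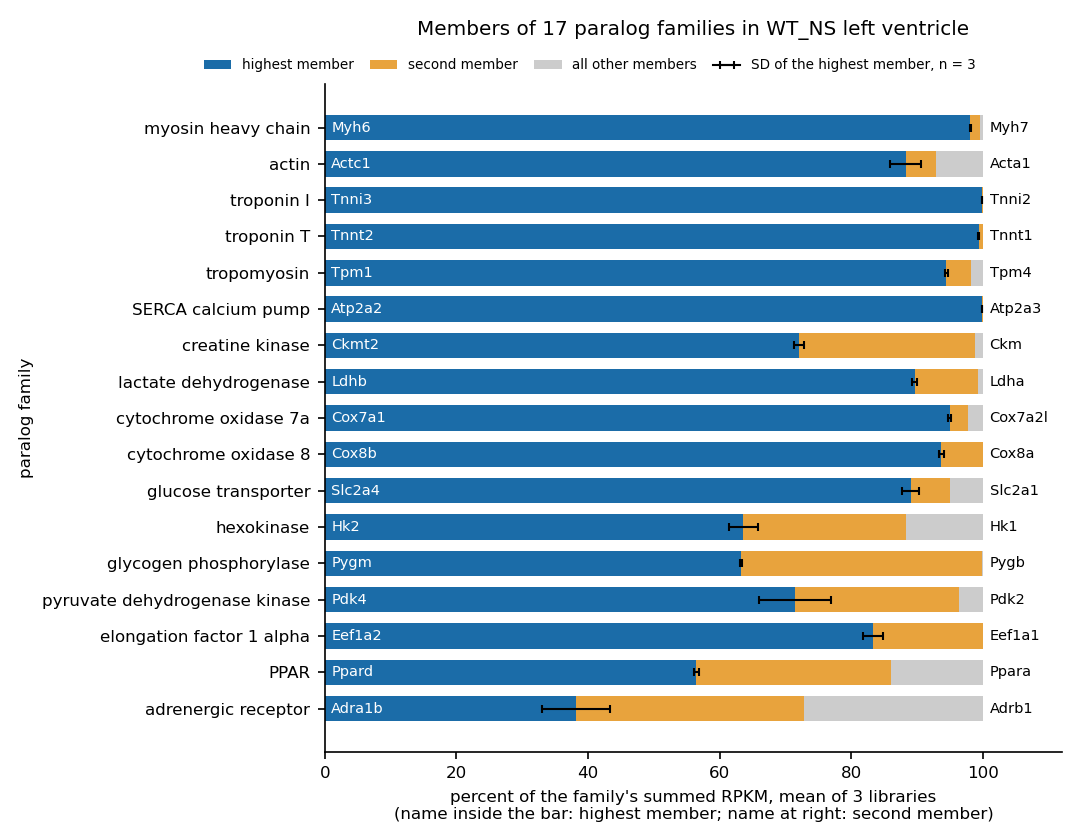
Mean percent of each family's summed RPKM held by its highest member (blue, named in the bar), its next member (orange, named at the right) and all others (grey) in 17 of the 48 families; error bars are the SD of the highest member over 3 libraries. Most contractile families are close to 100%, while PPAR and adrenergic receptors are divided.

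Receptors and transcription factors were low and more evenly divided. Among adrenergic receptors Adra1b had 2.77, 2.11 and 3.07 RPKM and Adrb1, the receptor by which noradrenaline speeds the heart, had 2.52, 2.48 and 2.15 RPKM. The first place changed between libraries, and their levels overlapped. Ppard held 56.5% ± 0.345 and Ppara 29.6% ± 0.295 of the PPAR receptors, which sense fatty acids (SD, n = 3). Esrra held 81.1% of the estrogen-related receptors, Mef2d 67.4% of Mef2 factors, and Gata4, a factor of heart development, 60.3% ± 4.47 of GATA factors (SD, n = 3). With counts in place of RPKM the same member led in 45 of the 48 families.

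The gene deleted in the other genotype of the study was listed here at a low level. Alox5 (chromosome 6, 116410077 to 116461178, ENSMUSG00000025701.12), the enzyme that begins leukotriene synthesis, had 3.28, 2.66 and 3.41 RPKM from 287, 244 and 309 counts. It held 85.3% ± 3.64 of the lipoxygenase family (SD, n = 3), and Alox12 had 0.689, 0.306 and 0.478 RPKM. Its partner protein Alox5ap had 3.10, 3.71 and 2.91 RPKM, Lta4h 2.06, 2.02 and 2.03, and Ltc4s 0.573, 0.486 and 0.616 RPKM. Runx2 (chromosome 17, 44495987 to 44814797), the bone factor named in the series title, had 4, 2 and 4 counts. Runx3 was the highest of its family, at 0.722, 0.393 and 0.626 RPKM, followed by Runx1 at 0.155, 0.136 and 0.150 RPKM. At 2 to 4 counts a change in Runx2 within these libraries was not detectable.

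Marker lists of cell types other than heart muscle cells gave modest sums. How much of each sum came from the named cell type was not tested. Pericyte and smooth muscle markers summed to 1093, 1038 and 1069 CPM (counts scaled to the library total), endothelial markers to 1030.4, 984 and 941 CPM, fibroblast markers to 841, 727 and 679 CPM and macrophage markers to 176, 174 and 157 CPM. The highest of each were the pericyte gene Rgs5 (88.0, 70.9 and 76.9 RPKM), the endothelial fatty acid carrier Fabp4 (86.6, 79.4 and 78.3 RPKM), gelsolin Gsn (160.1, 130.5 and 127 RPKM) and the lysozyme gene Lyz2 (60.3, 62.5 and 49.6 RPKM). Adipocyte markers other than Fabp4 and Cidea were at or under 1 RPKM, with adiponectin (Adipoq) at 14, 3 and 1 counts. T cell, B cell, lung and thymus markers summed to less than 4 CPM each in every library. Neutrophil markers summed to 8.72, 7.69 and 2.54 CPM, most of it S100a9 at 132, 108 and 31 counts. Library 3 was the lowest for 7 of the 8 fibroblast markers and 7 of the 9 endothelial markers with a mean count of at least 100, against 38.0% of all such genes.

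Rows that overlap in the genome had linked values. The gene model Gm45233 shares 98.6% of its bases with other rows of the same strand, the most with Etfb. It held 24444, 26438 and 26928 counts against 24572, 26582 and 27074 for Etfb. All bases of Gm22953 lie under rows of the opposite strand, the most under Serf2. Gm22953 held 5339, 6115 and 5460 counts, 32.7% to 34.2% of those of Serf2. Mhrt, an RNA antisense to Myh7, has 38.1% of its bases under rows of the other strand, the most under Myh7. Mhrt held 26512, 26207 and 29755 counts beside 46455, 46631 and 51458 for Myh7. Rows with at least 90% of their bases under rows of the other strand took 0.315% of counts. Those with at least 90% shared with rows of the same strand took 0.817%. Whether counting used the strand is not given in the sources used here, so sense and antisense levels of such pairs are uncertain. The genes of this paragraph, apart from Myh7 and Etfb, were chosen after their values were seen.

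Spread between the libraries was small for most genes. Genes with a mean count of at least 100, 9413 in all, were ranked by the CV of RPKM, and a gene was called variable at a CV of at least 0.3. By that rule 97 genes, 1.03% of those ranked, were variable, and 20 had a CV of at least 0.5. The median CV was 0.0680 against 0.0493 from counting alone, and 71.9% of genes had a CV under 0.1. The common biological CV estimated by edgeR was 0.0825. Just inside the threshold lay Ankrd23 (0.301) and Btaf1 (0.301), and just outside it Fam117b (0.296) and Nppa (0.296). The share of variable genes was 1.38% at mean counts of 100 to 300, 0.397% at 1000 to 3000 and 1.46%, or 3 of 205 genes, at 10000 and above. Ranked by the GC content of their longest transcript and cut into 5 groups of equal size, the 2 groups of highest GC held 28 and 33 variable genes and the other 3 held 9 to 11, while the median CV of a group ran from 0.0642 to 0.0740. The part of GC content in these calls was not tested.

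**Figure D4:**
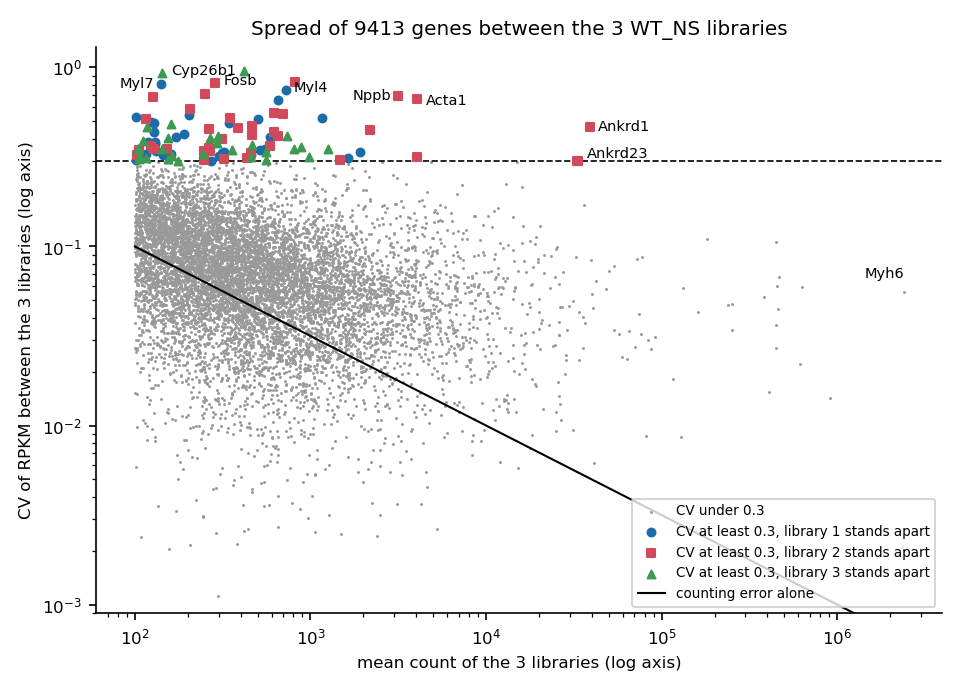
CV of RPKM between the 3 libraries against mean count, both on log axes, for each of 9413 genes; the solid line is counting error alone, the dashed line the threshold of 0.3, and symbols above it show which library stands apart. Ankrd1 lies far to the right of most variable genes, and Myh6 at the far right has a CV of 0.0557.

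The library farthest from the median was library 2, standing high, for 31 of the 97 variable genes (32.0%, against 23.3% of all 9413 genes ranked) and library 1, standing high, for 28 (28.9% against 16.9%). Library 3 stood high for 13 (13.4% against 12.03%) and low for 16 (16.5% against 17.96%), close to its shares of all genes. Library 2 stood low for 6 and library 1 for 3. Library 2 was the highest for 40 of the 97, a share near its 41.5% of all genes, and library 3 was the lowest for 49 of the 97, against 38.0% of all genes. Of the 97, 12 were predicted models rather than named genes.

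Genes high in library 2 included immediate early genes, transcribed within minutes of a stimulus. Fosb, a partner of Jun in the AP-1 factor, had 146, 563 and 148 counts, and Fos had 170, 461 and 121. Cyr61, a secreted matrix protein, had 10.1, 22.9 and 8.79 RPKM, the antiproliferative gene Btg2 had 9.85, 18.7 and 6.27 RPKM, and Egr1 had 2.72, 5.64 and 2.23 RPKM. In each the library 2 value was the highest and the other 2 lay closer together. Of the 24 immediate early genes, 20 were ranked and 9 of these were variable, against 1.03% of all genes ranked. The median CV of the 20 was 0.217 against 0.0680 for all genes ranked. Library 2 was the highest for 14 of the 20, against 41.5% of all genes, library 1 for 6 and library 3 for 0. Library 3 was the lowest for 18 of the 20, against 38.0% of all genes, so the list was low in library 3 as well as high in library 2. For 3 of the 9 variable members, Jund, Nr4a2 and Atf3, the library that stood apart was library 3, standing low. Jund had 31.9, 25.8 and 14.8 RPKM, but Gm11175 lies under it on the opposite strand and held 76.2% to 86.7% as many counts.

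The fetal and stress list had 3 variable members among 9 ranked, against 1.03% of all genes ranked. In all 3 library 2 stood high, as it did for 32.0% of the 97 variable genes. Over the 9, library 2 was the highest for 5, against 41.5% of all genes. Nppb (chromosome 4, 147985788 to 147987205), the B-type natriuretic peptide, had 119, 329 and 102 RPKM from 1976, 5741 and 1757 counts. Acta1 (chromosome 8, 123891769 to 123894751), skeletal actin, had 2253, 7232 and 2610 counts, and in RPKM library 2 was 2.89 times the mean of the others. Ankrd1 (chromosome 19, 36111965 to 36119844), a titin-binding repressor of muscle, had 711, 1536 and 752 RPKM, where the same ratio was 2.10, and at 26780, 60661 and 29259 counts its counting error was far smaller than that gap. Outside the list, its relative Ankrd23 had 434, 754 and 499 RPKM. Of the exon bases of Ankrd23, 78.2% are shared with other rows of the same strand, the most with Gm42417. That row held 98.3% to 98.4% as many counts. The TNF receptor family member Tnfrsf12a had 15.3, 33.7 and 16.4 RPKM and Klhl34 had 1.53, 4.23 and 2.34 RPKM. Other members of the list differed, as Myh7 had a CV of 0.0575 and Nppa, with 325, 270.5 and 175 RPKM, was lowest in library 3. Of the exon bases of Nppa, 61.5% lie under Gm13054 on the opposite strand, which held 52.2% to 54.3% as many counts.

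Nppb, Acta1 and Ankrd1 are the 3 variable members of the fetal and stress list, and their promoters are shown because all 3 were high in the same library. Each sequence is the 250 bases before the RefSeq start of the gene (build GRCm38.p6, which is mm10), 5′ to 3′ on the gene's strand. RefSeq starts can differ from those of the gene rows counted here. For Nppb the gene row begins within the window, so the marked motif lies inside that row. Capitals mark CATTCC, or its reverse complement GGAATG, the core of the M-CAT element that TEAD factors bind in muscle genes.
Nppb (chr4:147985650-147985899, plus strand): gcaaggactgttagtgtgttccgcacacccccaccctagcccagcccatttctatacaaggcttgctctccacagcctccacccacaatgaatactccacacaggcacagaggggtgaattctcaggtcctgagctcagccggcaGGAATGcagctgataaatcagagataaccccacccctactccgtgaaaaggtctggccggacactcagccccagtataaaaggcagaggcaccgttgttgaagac
Acta1 (chr8:123894776-123895025, minus strand): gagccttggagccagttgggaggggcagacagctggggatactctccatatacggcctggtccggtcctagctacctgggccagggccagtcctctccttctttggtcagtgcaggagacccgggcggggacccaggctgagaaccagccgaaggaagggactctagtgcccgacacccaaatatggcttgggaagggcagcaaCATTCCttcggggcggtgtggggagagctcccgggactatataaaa
Ankrd1 (chr19:36119845-36120094, minus strand): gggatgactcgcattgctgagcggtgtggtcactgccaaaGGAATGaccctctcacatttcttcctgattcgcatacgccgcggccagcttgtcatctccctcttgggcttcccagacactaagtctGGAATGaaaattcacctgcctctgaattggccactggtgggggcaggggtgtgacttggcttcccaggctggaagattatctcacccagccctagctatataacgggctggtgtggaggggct
Ankrd1 holds the motif at 2 places, and Nppb and Acta1 at 1 each. Over all 27025 genes of the promoter table, 14.4% hold it in the same window on either strand, and in these 3 promoters it overlaps none of the other motifs searched. Among the 25 highest named protein-coding genes outside the mitochondrial genome, 20 had a promoter in the table and 7 of them (35.0%) held the motif. Of the 31 genes high in library 2, 23 (under 80%) had a promoter in the table, so no share is given for them. The other motifs searched were TATAAA, which 14.3% of the table's genes hold, Nppb and Acta1 among them, TGACGTCA, at 1.77%, and the CArG box, at 1.62%. A CArG box stands 73 to 64 bases before the start of Acta1. A match is a run of letters only and says nothing of binding.

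Genes high in library 1 included those of atrial muscle and of red cells. The atrial light chains Myl7 and Myl4 had 264, 52 and 105 counts and 1324, 331 and 530 counts, and in RPKM library 1 was 3.49 and 3.20 times the mean of the others. All 4 ranked genes of the atrial list were highest in library 1, as were 32.8% of all genes ranked. Of the 4, Myl7, Myl4 and Dkk3 were variable, against 1.03% of all genes ranked. Sln, the atrial inhibitor of the calcium pump, which was chosen after its values were seen, had 27, 2 and 8 counts, and the atrial growth factor Bmp10 had 0 counts in each library. The whole list of 7 summed to 366, 257 and 185 CPM, mostly from Nppa. In library 1 this stood beside the 174585 CPM of the muscle cell markers in the same library. The part of atrial tissue in these values was not tested. Haemoglobin Hbb-bs had 159, 127 and 96.9 RPKM. All 5 ranked genes of the red cell list, 4 of them globins, were highest in library 1, against 32.8% of all genes ranked. Of the 5, 3 were variable, against 1.03% of all genes ranked. The alpha globins Hba-a1 and Hba-a2 are 99.8% identical over 538 aligned bases, so their division is uncertain.

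Among the 25 named genes of largest CV, others high in library 1 belonged to no list described here. Glrx5, needed for iron-sulphur clusters, had 56.1, 25.1 and 15.4 RPKM, and Dcun1d5, Bri3, Tmem160, Irf2bp1 and Plekhf2 were high in the same library by 2.01 to 2.27 times the mean of the others. For all 6, library 3 was the lowest, as it was for 49 of the 97 variable genes and 38.0% of all genes ranked.

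Library 3 stood high for a smaller group. Cyp26b1 (chromosome 6, 84571414 to 84593908), which breaks down retinoic acid, had 96, 39 and 295 counts, the largest CV of a named gene at 0.9298. Ucp3, a mitochondrial carrier known to follow fatty acid load, had 9.87, 8.97 and 16.5 RPKM, and Pdk4 was also highest there. The list of fasting and lipid response genes summed to 1083, 1283 and 1559 CPM, and 12 of its 14 ranked genes were highest in library 3, against 25.7% of all genes. Of the 14, Ucp3 and Zbtb16 were variable, against 1.03% of all genes ranked. Zbtb16, with 2.66, 5.19 and 5.37 RPKM, stood low in library 1. Library 2 stood low for Erdr1, with 919, 86 and 1439 counts, for the kinase gene Sbk3, with 200, 34 and 149 counts, and for nebulin (Neb), with 205, 86 and 331 counts. Erdr1 and the model Gm21887 (363, 45 and 843 counts) were listed on chromosomes Y and X, and RefSeq gives Gm21887 as another name of Erdr1, so their reads may not be separable.

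**Figure D5:**
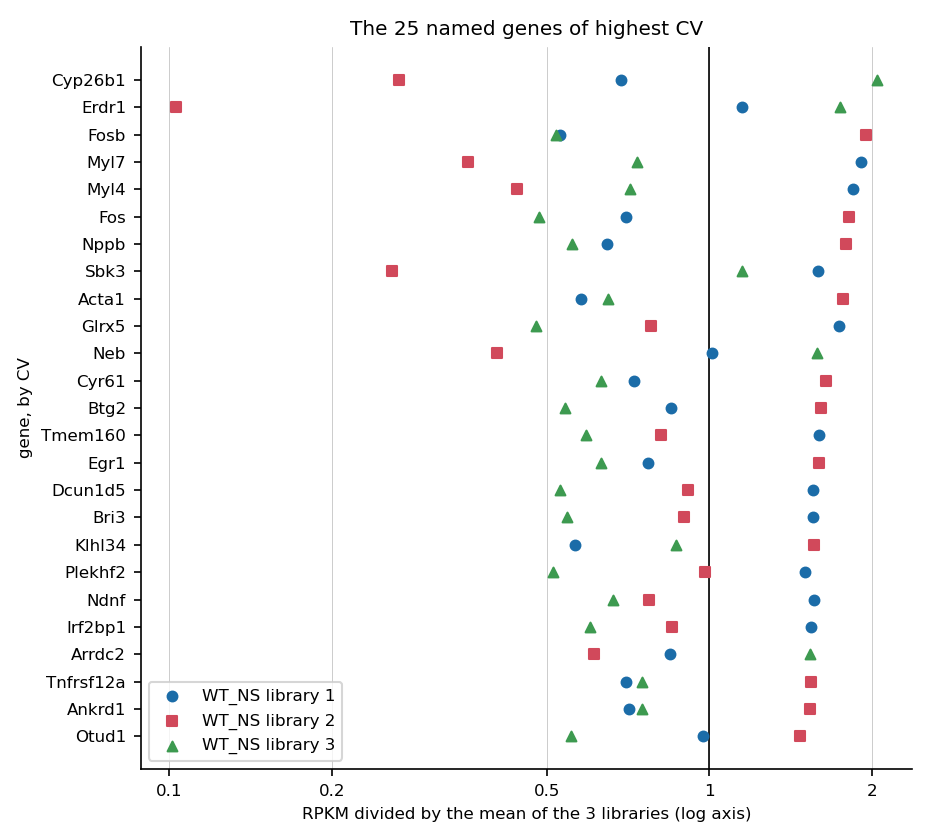
RPKM of each library divided by the mean of the 3 (log axis) for the 25 named genes of highest CV, in order of CV. Library 2 is the rightmost symbol for Fosb, Fos, Nppb, Acta1 and Ankrd1, library 1 for Myl7, Myl4 and Glrx5, and Erdr1 shows the farthest low value, in library 2.

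With 1.03% of all ranked genes variable, a list without any is near the background. None of the 10 muscle cell markers, the 30 genes of fatty acid use, the 24 of the citrate cycle, the 22 of glycolysis, the 13 ranked clock genes, the 10 ranked interferon genes or the 77 ribosomal protein genes was variable. Median CV was 0.0280 for the citrate cycle, 0.0333 for fatty acid use, 0.0473 for ribosomal proteins, all under the 0.0680 of all genes ranked, 0.0835 for interferon genes and 0.0717 for the sarcomere, where 4 of 40 ranked genes (Myl7, Myl4, Acta1 and Ankrd1) were variable. Clock genes, which follow the time of day, had a higher median CV of 0.134, and 10 of 13 were highest in library 2, against 41.5% of all genes. The ribosomal protein genes were lowest in library 3 for 56 of 77, against 38.0% of all genes. Among genes with a mean count of at least 1000, the smallest CVs were those of Rplp0 (65.8, 66.1 and 66.1 RPKM), Eif2b5, Phpt1, Atp5o and Os9, from 0.00242 to 0.00316, which is below what counting alone gives for them. They were picked as the lowest of many CVs, each from 3 libraries, so the shortfall is not shown to be a trait of these genes.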

How the data were processed

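RNA-seq of mouse left ventricle was used as the gene tables that the authors deposited: whole-number read counts per gene (49492 rows) and RPKM (28070 rows). Reads came from poly(A)-selected, directional libraries, per the labels' protocols. HISAT2, DESeq2, GRCh38 and mm10 are named in the submitters' processing notes; the counting program, annotation and strand setting are not given in the sources used here. All 63605 RPKM values above 0 in the 3 libraries lay within 0.1% of the value recomputed from the deposited counts, gene length and library total. Depth was 21328937 to 22372490 counts. The other 9 libraries were not used, and no groups were compared, so there are no p-values.

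Means and SDs are over 3 libraries, and the labels do not say whether these are separate animals, so the SD may be partly technical. Spread was the CV of RPKM, for genes with a mean count of at least 100, called variable at 0.3. Biological CV came from edgeR 4.0.16 in R 4.3.3, tested on simulated data, with DESeq2 1.42.0 size factors as an alternative. Other steps used Python 3.11.15, pandas 2.3.3, SciPy 1.17.1, bedtools 2.31.1 and blastn 2.17.0, with transcripts of GENCODE M21, in which 90.95% of matched symbols had the same start and end. Rows whose symbols a spreadsheet had turned into dates (26) were kept but not named. Named were the 25 highest rows by mean RPKM, the 25 highest outside the mitochondrial genome, the 2 highest members of each family, the 4 highest of each list, the 25 named genes of largest CV, the 10 steadiest genes, Alox5 and Runx2. Other genes in the text, such as Lmod2, Tcap, Ttn, Jund and Zbtb16, were chosen after their values were seen. The members and lists were chosen with earlier results of these data known. A few genes that the rule names are not reported here.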

Additional observations from a re-analysis of the deposited data

How the results depend on the processing

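Of 62 alternatives to 11 values, 46 kept the value within 1 SD, or a count within 1.5 times, and 16 moved it. Leaving out 1 of 3 libraries cannot move a mean share by 1 SD. The runs that did so for the shares were thus bound to count among the 46 and say nothing of stability. By summed RPKM in place of counts, mitochondrial protein genes took 30.8%, sarcomere genes 7.84%, nuclear respiratory chain genes 3.94% and metabolic enzymes 3.18%, and 14 genes held 50%. With the mitochondrial genome left out, the last 3 lists took 26.7%, 4.54% and 4.95% of counts, and 116 genes held 50%; this setting gives no mitochondrial share. With the matching nuclear rows added, a setting chosen after seeing the data, the mitochondrial share was 23.1%. The number of variable genes depended most on the count minimum: 612 at a mean count of at least 20 (4.53% of 13504), 9571 with no minimum (39.7% of 24125) and 29 at 500 (0.714% of 4064). It was 61 by the SD of log2(RPKM + 1). Scaling changed it less, with 92 under TMM and 94 under DESeq2 size factors, of which 88 and 90 were among the 97. Leaving out each library in turn gave 110 to 144 variable genes, of which 57 to 68 were among the 97. Of the 25 named genes of largest CV, 10 to 17 stayed, with 10 when library 2 was left out. In the same runs the shares were 16.4% to 17.2% for mitochondrial proteins, 21.7% to 22.4% for the sarcomere, 3.70% to 3.81% for the respiratory chain and 4.05% to 4.15% for metabolic enzymes. With counts in place of RPKM, the leading share moved by over 1 SD in 37 of 48 paralog families, most for Cav3, from 68.2% to 42.0%. Why these values moved was not tested. No paired analysis was possible because no groups were compared.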
